A study of Mus musculus with 4 samples.

Results

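The Polycomb and Trithorax genes described here are 38 mouse genes that encode subunits of the PRC2, PRC1, PR-DUB and MLL complexes and an H3K27 demethylase. They were chosen by name from what their proteins do, with earlier results of these data known. All 38 were found among the 52636 gene identifiers of the count tables. Of these, 37 had enough reads to be tested, among 18172 genes tested in all. The exception was Men1. RNA was sequenced from mouse kidney cells isolated by flow sorting, in a Brg1-cKO group of 2 libraries and a control group of 2 libraries, each library from 3000 cells. The name Brg1-cKO usually stands for a conditional knockout of Brg1, the ATPase of SWI/SNF remodelling complexes that is encoded by Smarca4. Age, strain, sorting marker, deleted allele, Cre driver and any allele carried by the controls are not given in the sources used here. The labels do not tie libraries to animals, so p-values cover the variation among the 4 libraries alone, part or all of which may be technical.

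Polycomb and Trithorax proteins keep developmental genes off or on through cell divisions. PRC2 methylates lysine 27 of histone H3, PRC1 binds that mark through its CBX subunits and attaches ubiquitin to histone H2A, and PR-DUB removes this ubiquitin. On the Trithorax side stand MLL enzymes, which methylate lysine 4 of histone H3, and SWI/SNF remodellers such as Brg1, whose fly counterpart was found as a gene that opposes Polycomb. In the developing kidney, where nephron progenitors either renew or turn into nephron epithelium, these complexes are studied as regulators of that choice.

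The Brg1-cKO libraries were shallower and less alike than the controls. Reads counted on genes numbered 14645665 and 10922272 in the Brg1-cKO libraries, against 35411905 and 37999342 in the control libraries. Reads outside all counted features made up 49.5% and 57.2% of uniquely aligned reads in Brg1-cKO and 16.5% and 15.4% in control. The coefficient of variation between libraries that edgeR names biological was 1.151 in Brg1-cKO and 0.1739 in control, and it may hold technical variation. Over all tested genes, log2 CPM, a gene's reads scaled to the size of its library, correlated at r = 0.758 between the Brg1-cKO libraries and at 0.977 between the controls, a description across genes, which are not independent replicates. Smarca4 itself had 760 and 691 CPM in Brg1-cKO libraries, against 898 and 937 CPM in controls, a log2 fold change of -0.34 (SE 0.09) with an edgeR adjusted p of 0.167. The Y-linked gene Ddx3y had 1.05 and 3.27 CPM in Brg1-cKO libraries, against 76.0 and 78.8 CPM in control, and the X-inactivation RNA Xist had 836 and 1205 CPM, against 244 and 217 CPM. Sex-linked genes thus moved with the groups, and their part in the results was not tested.

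The promoters of these genes are shown first because many lie in CpG islands, the kind of DNA that Kdm2b, one of the members, binds through its CXXC zinc finger. RefSeq promoter windows on GRCm38.p6 were found for 32 of the 38 genes, 45 windows of the 250 bases before an annotated start. Cbx2, Kdm6b, Kmt2b, Pcgf1, Rybp and Yaf2 had none. The windows held a median of 22 CG dinucleotides, and 39 of 45 held more than the median of 6 over all 32851 windows. The range was 1 to 48. The letters CCAAT, read on either strand, were in 37.8% of the members' windows and 33.8% of all windows, CACGTG in 17.8% and 6.02%, and TATAAA in 2.22% and 12.4%. Both Suz12 and Kdm2b windows printed here hold CCAAT and the Ezh1 window holds none of these motifs. Each sequence runs 5′ to 3′ on the gene's strand with every CG in capitals. The first belongs to one of several Kdm2b starts and holds 36 CG (chr5:122900368-122900617, minus strand), the second to Ezh1 and holds 14 (chr11:101226464-101226713, minus strand), and the third to Suz12 and holds 37 (chr11:79992856-79993105, plus strand).
Kdm2b: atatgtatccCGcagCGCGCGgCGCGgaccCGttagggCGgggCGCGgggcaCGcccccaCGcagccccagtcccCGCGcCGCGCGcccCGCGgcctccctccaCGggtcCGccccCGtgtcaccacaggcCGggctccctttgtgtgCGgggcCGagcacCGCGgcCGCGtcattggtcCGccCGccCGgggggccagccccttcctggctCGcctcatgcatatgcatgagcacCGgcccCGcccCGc
Ezh1: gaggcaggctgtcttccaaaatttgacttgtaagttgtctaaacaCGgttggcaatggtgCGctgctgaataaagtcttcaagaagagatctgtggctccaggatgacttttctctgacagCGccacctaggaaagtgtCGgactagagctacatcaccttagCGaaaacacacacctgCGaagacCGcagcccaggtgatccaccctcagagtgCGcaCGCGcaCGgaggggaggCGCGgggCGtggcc
Suz12: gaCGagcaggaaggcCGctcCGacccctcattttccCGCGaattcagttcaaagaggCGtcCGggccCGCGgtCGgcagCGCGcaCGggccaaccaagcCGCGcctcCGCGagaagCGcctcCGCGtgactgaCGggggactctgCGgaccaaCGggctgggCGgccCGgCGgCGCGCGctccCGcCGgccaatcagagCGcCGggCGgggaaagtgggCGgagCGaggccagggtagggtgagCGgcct

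None of the 37 tested Polycomb and Trithorax genes passed edgeR's quasi-likelihood test at an adjusted p of 0.05. No other gene passed either, 0% of 18172 tested. Even Ddx3y, at a log2 fold change of -5.18, had an edgeR adjusted p of 0.166, so failing this test does not show similar levels. The members' log2 fold changes of Brg1-cKO over control ran from -1.92 to 0.73 with a median of -0.08, beside a median of -0.06 over all genes tested. At an unadjusted p under 0.05, 1 member was higher, Kdm2b, and 1 was lower, Rybp, both of variant PRC1, where 5.44% of all genes were higher and 12.9% lower. With DESeq2 the adjusted threshold was passed by 2 of the 37 members, the same pair, where 5.36% of all genes passed. With limma-voom it was passed by 0 members and 1.8% of all genes. By any of these rules the share of members called was near or under the share of all genes. In bulk RNA, fewer cells of a type and less RNA per cell cannot be told apart.

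A looser description asks for which members the Brg1-cKO libraries were both above, or both below, the control pair. This held for 9 members above the controls, 24.3% of those tested, beside 17.5% of all genes, and for 14 members below, 37.8%, beside 34.5%. Among genes that reached 10 CPM in at least 2 libraries, 9 of 34 members lay above, 26.5%, beside 23.1% of such genes, and 12 lay below, 35.3%, beside 27.8%. These shares were close to the background. With 2 libraries against 2, the exact two-sided permutation test of a single gene cannot go below 0.333.

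**Figure D1:**
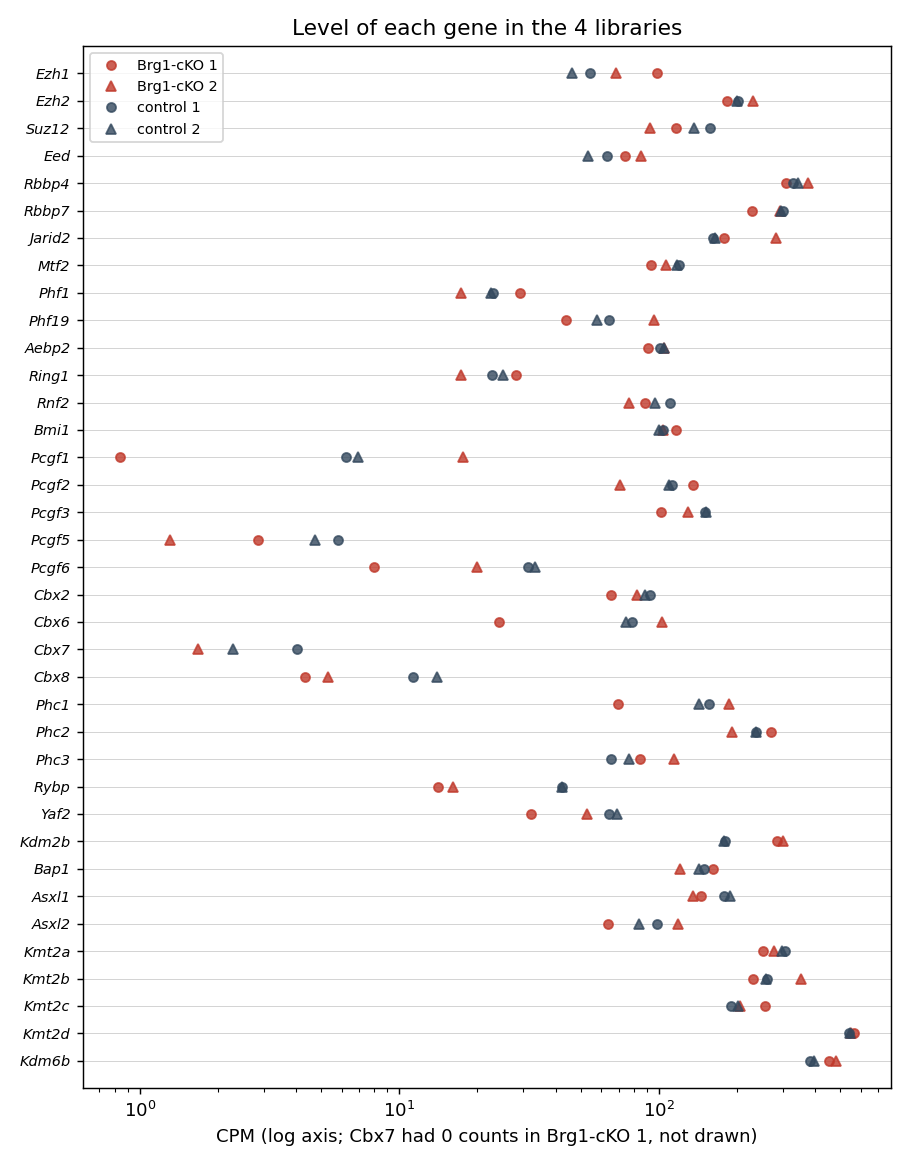
CPM of each member in the 2 Brg1-cKO and 2 control libraries on a log axis, ordered by complex, 1 point per library. The control points of a gene lie close together while the Brg1-cKO points of genes such as Pcgf1, 0.839 and 17.7 CPM, lie apart, and values of 0 (Cbx7 in Brg1-cKO replicate 1, Men1 in every library) are not drawn.

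**Figure D2:**
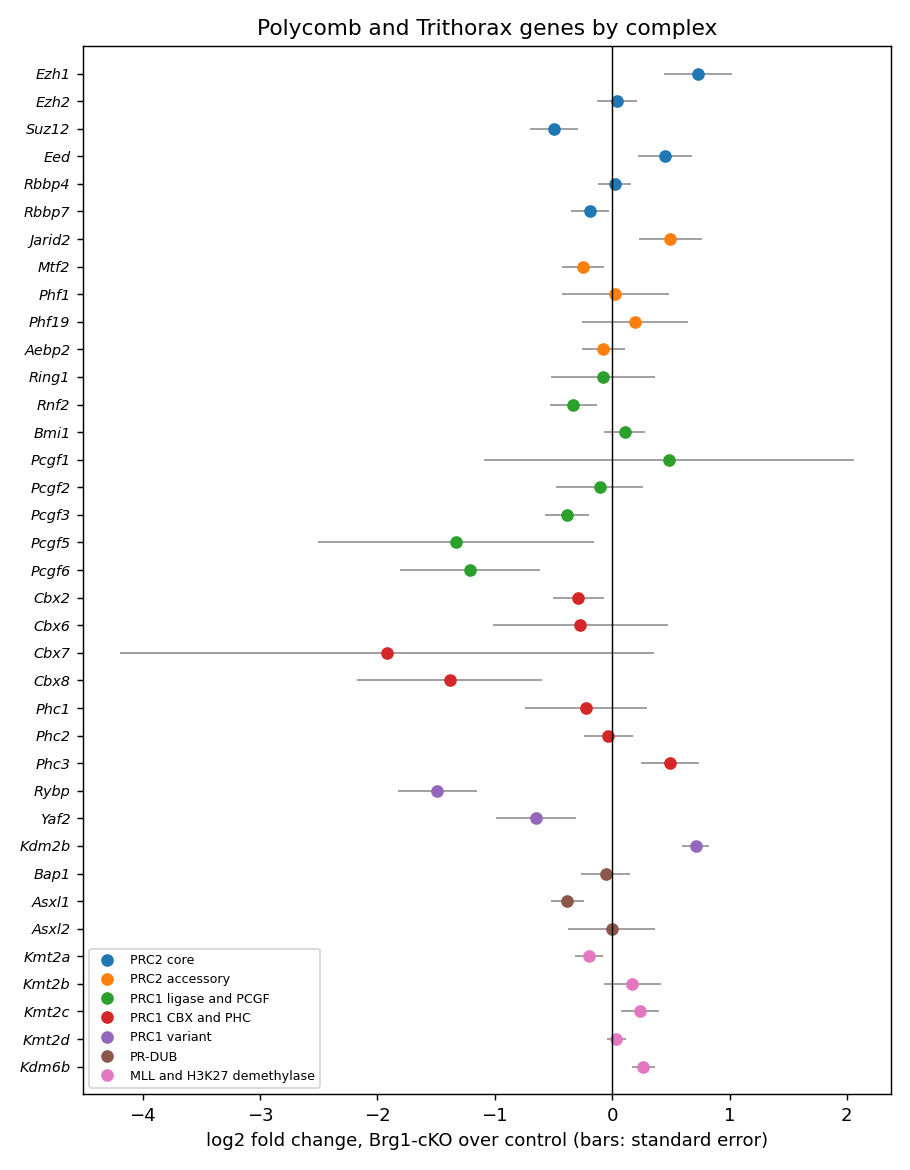
Log2 fold change of Brg1-cKO over control for the 37 tested members by complex, with bars of 1 SE from the edgeR fit. Kdm2b at 0.71 and Rybp at -1.49 lie farthest from 0 in units of their SE, and the widest bars belong to genes with few reads, such as Cbx7.

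The PRC2 core comprises the methyltransferases Ezh2 and Ezh1, the scaffold Suz12, the reader subunit Eed and the histone-binding chaperones Rbbp4 and Rbbp7. Ezh2, the form typical of dividing cells, had 183 and 231 CPM in Brg1-cKO libraries, against 202 and 199 CPM in control, and the groups overlapped. The log2 fold change was 0.04 (SE 0.17, adjusted p = 0.933 by edgeR). Ezh1, the form typical of resting cells, had 98.7 and 68.2 CPM in Brg1-cKO libraries, against 54.1 and 46.4 CPM in control. Both Brg1-cKO libraries lay above both controls, and the log2 fold change of 0.73 (SE 0.29) was the highest of any member but did not pass the test (edgeR adjusted p = 0.314). Suz12, without which PRC2 does not assemble, had 116 and 92.5 CPM in Brg1-cKO libraries, against 157 and 136 CPM in control. Both Brg1-cKO libraries lay below both controls, at a log2 fold change of -0.49 (SE 0.20, adjusted p = 0.334 by edgeR).

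Eed, which reads trimethylated lysine 27 and passes that signal to the enzyme, had 73.9 and 85.7 CPM in Brg1-cKO libraries, against 63.1 and 53.4 CPM in control. The groups did not overlap, and the log2 fold change was 0.45 (SE 0.23, adjusted p = 0.426 by edgeR). Suz12 and Eed, 2 subunits of 1 complex, thus had fold changes of opposite sign, neither past the test. Rbbp4 had 309 and 374 CPM in Brg1-cKO libraries, against 330 and 343 CPM in control, and the groups overlapped. Rbbp7 is on the X chromosome and had 229 and 293 CPM in Brg1-cKO libraries, against 301 and 295 CPM in control. Its Brg1-cKO libraries were the lower ones, the second by little, at a log2 fold change of -0.19 (SE 0.16, adjusted p = 0.652 by edgeR). Over the summed markers of proliferating cells, the groups were nearly level, 2968 and 2906 CPM in Brg1-cKO and 2987 and 2916 CPM in control. Of these 8 markers, 4 had log2 fold changes above 0 and 4 below, from -0.50 to 0.47.

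The accessory subunits steer PRC2 to its targets. Jarid2, which with Aebp2 defines one form of the complex, had 178 and 282 CPM in Brg1-cKO libraries, against 162 and 164 CPM in control. Both Brg1-cKO libraries were above the controls, the second far more than the first, and the log2 fold change was 0.50 (SE 0.27, adjusted p = 0.458 by edgeR). Mtf2, a Polycomb-like protein that binds CpG-rich DNA, had 93.2 and 106 CPM in Brg1-cKO libraries, against 120 and 117 CPM in control. This was the lowest fold change among accessory genes, -0.25 on the log2 scale (SE 0.18, adjusted p = 0.580 by edgeR), with groups that did not overlap. For Aebp2 and the other Polycomb-like genes, Phf1 and Phf19, the groups overlapped. Aebp2 had 90.6 and 104 CPM in Brg1-cKO and 101 and 105 CPM in control, and Phf1 had 29.3 and 17.3 CPM in Brg1-cKO and 23.1 and 22.6 CPM in control. Among the accessory genes, Phf19 had the largest ratio between libraries of a group. It had 43.9 and 96.0 CPM in Brg1-cKO, on either side of 64.4 and 57.9 CPM in control.

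PRC1 is built on a RING ligase, Rnf2 or Ring1, paired with one of the PCGF proteins that name its forms. Rnf2 had 88.1 and 76.6 CPM in Brg1-cKO libraries, against 111 and 96.5 CPM in controls, a log2 fold change of -0.33 (SE 0.20, adjusted p = 0.511 by edgeR) with groups that did not overlap. Ring1 was the scarcer ligase at 28.1 and 17.3 CPM in Brg1-cKO and 22.8 and 25.0 CPM in control, and its groups overlapped. Bmi1, the PCGF of canonical PRC1 best known from stem cells, had 116 and 104 CPM in Brg1-cKO libraries, against 104 and 100 CPM in control. Its lower Brg1-cKO library and its higher control differed only in the second decimal, so the groups barely separated. Pcgf2, the other canonical PCGF, overlapped between groups at 136 and 70.8 CPM in Brg1-cKO and 113 and 110 CPM in control.

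Of the 4 PCGF genes of variant PRC1, 3 had fold changes below 0, none past the test, where 9626 of all 18172 tested genes were below 0. Pcgf6, the PCGF of the PRC1 form that represses germline genes in mouse embryonic stem cells, had 7.97 and 19.9 CPM in Brg1-cKO libraries, against 31.2 and 33.3 CPM in control. Both Brg1-cKO libraries were the low ones, at a log2 fold change of -1.21 (SE 0.60, adjusted p = 0.417 by edgeR). Pcgf3 had 102 and 129 CPM in Brg1-cKO libraries, against 150 and 152 CPM in control, at a log2 fold change of -0.39 (SE 0.19, adjusted p = 0.413 by edgeR). Its groups did not overlap either. Pcgf5 had the lowest fold change of the PCGF genes, -1.33 (SE 1.18, adjusted p = 0.661 by edgeR), from 2.87 and 1.31 CPM in Brg1-cKO and 5.79 and 4.75 CPM in control. Pcgf1, the PCGF of the form that carries Kdm2b and Bcor, had the highest, 0.48 (SE 1.58, adjusted p = 0.922 by edgeR), from 0.839 and 17.7 CPM in Brg1-cKO and 6.26 and 6.95 CPM in control. The Brg1-cKO libraries of Pcgf1 lay on opposite sides of the controls and differed by 21.1 times, the widest ratio between libraries of a group among the members.

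The CBX proteins read methylated lysine 27 and the PHC proteins let PRC1 polymerise into larger bodies. Of the 7 members, 6 had fold changes below 0, where 9626 of all 18172 tested genes did. The signs of Cbx6, Phc1 and Phc2 depended on which Brg1-cKO library was left out. Cbx2 had 65.6 and 82.2 CPM in Brg1-cKO libraries, against 92.3 and 88.1 CPM in controls, with a log2 fold change of -0.29 (SE 0.22, adjusted p = 0.603 by edgeR) and no overlap. Cbx8 had 4.33 and 5.32 CPM in Brg1-cKO libraries, against 11.3 and 13.9 CPM in control, at a log2 fold change of -1.39 (SE 0.79, adjusted p = 0.483 by edgeR). The Brg1-cKO libraries were the low ones for both genes. Cbx7 had the lowest fold change of all members, -1.92 (SE 2.28, adjusted p = 0.756 by edgeR), from 0 and 1.68 CPM in Brg1-cKO and 4.05 and 2.28 CPM in control. These values rest on 0 and 18 reads in Brg1-cKO and 145 and 88 reads in control. Phc3, which had the highest fold change here, stood at 84.9 and 115 CPM in Brg1-cKO libraries, against 65.4 and 76.4 CPM in control. Its Brg1-cKO libraries were above both controls, at a log2 fold change of 0.49 (SE 0.25, adjusted p = 0.428 by edgeR). Cbx6, Phc1 and Phc2 overlapped between groups. Phc2 had 270 and 192 CPM in Brg1-cKO and 236 CPM in both controls. Cbx6 with 24.2 and 103 CPM and Phc1 with 69.8 and 187 CPM in Brg1-cKO spanned their controls, at 78.6 and 74.4 CPM and at 156 and 142 CPM.

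Variant PRC1 carries Rybp or its paralog Yaf2 in place of a CBX protein, and its Pcgf1 form is anchored at CpG islands by Kdm2b. All 3 members had libraries that did not overlap between Brg1-cKO and control, 1 above and 2 below, where 17.5% of all genes lay above and 34.5% below, so with 3 genes this count is not read as a trait of the group. Kdm2b had 284 and 301 CPM in Brg1-cKO libraries, against 180 and 178 CPM in control, or 293 ± 11.9 and 179 ± 1.55 CPM (SD, n = 2 each). Its libraries agreed within each group and the log2 fold change was 0.71 (SE 0.12), with an adjusted p of 0.166 by edgeR and 0.000685 by DESeq2. Over all alternatives, libraries left out included, its adjusted p ran from 2.63e-07 to 0.99997, the highest values without a control library. Kdm2b lies at chr5:122870665-122989823 on the minus strand of mm10, and 826 of its 10869 exonic bases are shared with the antisense genes A930024E05Rik and Rnf34 and 124 with Gm44574 on the same strand. Whether the counting used strand is not known from the sources used here. How reads in these shared bases were assigned, and so their bearing on the count of Kdm2b, is not known either.

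Rybp had 14.1 and 16.2 CPM in Brg1-cKO libraries, against 42.5 and 42.5 CPM in control, or 15.1 ± 1.45 and 42.5 ± 0.0058 CPM (SD, n = 2 each). Both Brg1-cKO libraries were far below the controls, and the log2 fold change was -1.49 (SE 0.34), with an adjusted p of 0.166 by edgeR and 0.0475 by DESeq2. Over all alternatives the adjusted p ran from 5.70e-07 to 0.99997. Rybp lies at chr6:100228565-100287485 on the minus strand of mm10 and shares no exonic base with another annotated gene. Yaf2, which does the same structural job, was lower as well, with 32.3 and 52.7 CPM in Brg1-cKO libraries, against 64.0 and 69.3 CPM in controls, a log2 fold change of -0.65 (SE 0.34, adjusted p = 0.444 by edgeR). The Brg1-cKO libraries of Yaf2 were both below the controls but unlike each other.

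**Figure D3:**
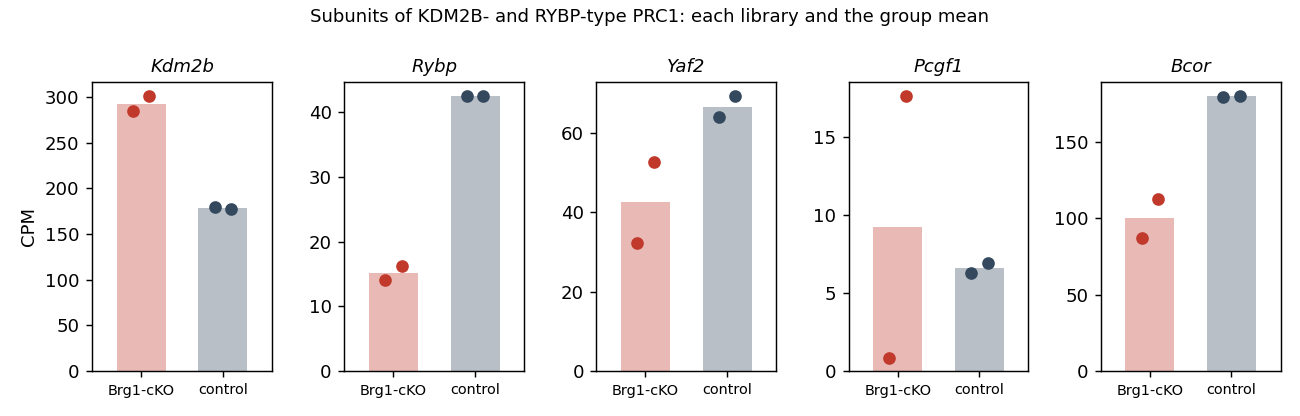
CPM of the variant PRC1 genes Kdm2b, Rybp and Yaf2 and of Pcgf1 and Bcor, with the group mean as a bar from 0 and 1 point per library, Brg1-cKO left of control. Kdm2b at 284 and 301 CPM in Brg1-cKO lies above its controls at 180 and 178 CPM, and Rybp at 14.1 and 16.2 CPM lies below its controls at 42.5 CPM.

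PR-DUB pairs the deubiquitinase Bap1 with an ASXL protein. Asxl1 had 145 and 135 CPM in Brg1-cKO libraries, against 178 and 187 CPM in control, and both Brg1-cKO libraries were below both controls. Its log2 fold change of -0.38 (SE 0.14) was the lowest of the 3 genes and did not pass the test (edgeR adjusted p = 0.276). Bap1 had 162 and 120 CPM in Brg1-cKO and 150 and 143 CPM in control, and Asxl2 had 63.6 and 118 CPM in Brg1-cKO and 98.6 and 84.0 CPM in control. The groups overlapped for both, and their log2 fold changes were -0.06 and -0.0048.

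Among MLL genes and the demethylase, Kdm6b, which removes methyl groups from lysine 27 and so opposes PRC2, had 452 and 483 CPM in Brg1-cKO libraries, against 381 and 396 CPM in control. Both Brg1-cKO libraries were above both controls, and the log2 fold change of 0.27 (SE 0.10), the highest of this group, did not pass the test (edgeR adjusted p = 0.282). Kmt2a, the MLL enzyme that maintains Hox gene expression, had the lowest, -0.20 (SE 0.12, adjusted p = 0.506 by edgeR), from 251 and 278 CPM in Brg1-cKO and 307 and 299 CPM in control. Kmt2d, an enhancer methyltransferase, differed least between groups for its error, with 564 and 549 CPM in Brg1-cKO and 541 and 545 CPM in controls, a log2 fold change of 0.04 (SE 0.08, adjusted p = 0.884 by edgeR). Kmt2c, its paralog, had 256 and 206 CPM in Brg1-cKO libraries, against 190 and 202 CPM in control, and Kmt2b had 231 and 354 CPM in Brg1-cKO libraries, against 261 and 259 CPM in control. The groups of Kmt2b overlapped and those of Kmt2c did not. Men1, which encodes the menin cofactor of Kmt2a and Kmt2b, was listed at 0 counts in all 4 libraries. Whether this came from the counting or from the cells was not tested, so it is not read as absence of the RNA.

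Levels of different genes were compared as CPM per kilobase of annotated exon. In control cells the highest means were 102 ± 1.38 for Rbbp7, 55.9 ± 1.53 for Kdm6b and 38.5 ± 1.06 for Rbbp4 (SD, n = 2), each apart from the next by more than their SDs. The same 3 genes led by group mean in Brg1-cKO cells, at 89.7 ± 15.4, 67.2 ± 3.19 and 39.1 ± 5.27 CPM per kilobase (SD, n = 2). In Brg1-cKO replicate 1, though, Pcgf2 at 38.5 and Phc2 at 38.2 were above Rbbp4 at 35.3. Apart from Men1, listed at 0, the lowest in control were Cbx8 at 3.43, Cbx7 at 0.49 and Pcgf5 at 0.42, and Cbx7 and Pcgf5 differed by less than the SD of Cbx7. Kdm2b ranked 11 of 38 in Brg1-cKO and 20 in control, Rybp 33 in Brg1-cKO and 26 in control, and Yaf2 14 in Brg1-cKO and 4 in control.

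Within families of alternative subunits, the shares of the summed CPM per kilobase show which paralog predominated. Ezh1 made up 32.7% and 20.96% of Ezh1 plus Ezh2 in Brg1-cKO, against 19.4% and 17.3% in control. The groups did not overlap, but the Brg1-cKO libraries differed more from each other than the second did from the controls, and Ezh2 predominated in all 4. Rybp made up 14.7% and 10.8% of Rybp plus Yaf2 in Brg1-cKO, against 20.8% and 19.5% in control, so Yaf2 predominated in all 4 libraries by this measure. Bmi1 made up 36.2% and 35.1% of the PCGF sum in Brg1-cKO, against 31.0% and 30.3% in control, and Pcgf6 made up 1.96% and 5.30%, against 7.36% and 7.93%. For both genes the groups did not overlap. Jarid2 made up 66.5% and 73.2% of Jarid2 plus Aebp2 in Brg1-cKO, against 61.9% and 61.4% in control. Rnf2 made up 71.1% and 77.7% of the RING ligases in Brg1-cKO and 79.2% and 75.2% in control, and Asxl1 made up 83.0% and 71.0% of Asxl1 plus Asxl2 in Brg1-cKO and 79.5% and 82.7% in control. These last 2 shares overlapped between groups. No share was tested, since 2 libraries against 2 allow no exact p under 0.333.

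**Figure D4:**
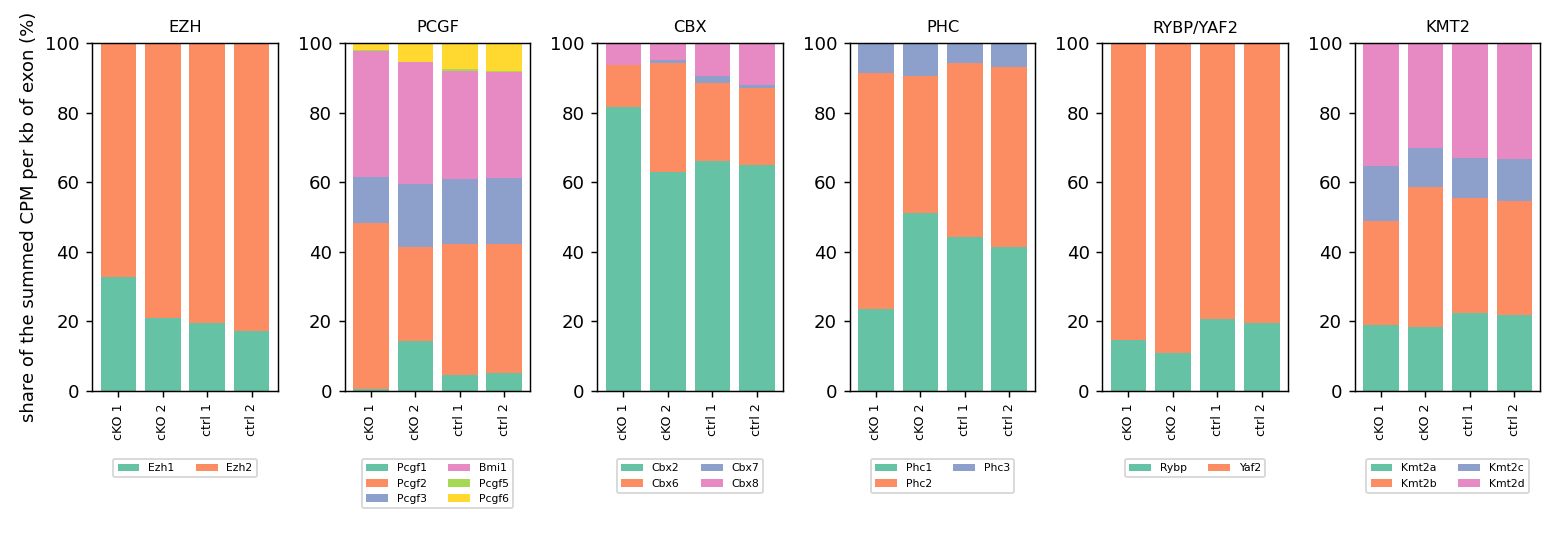
Percent of each family's summed CPM per kilobase of exon taken by each paralog, 1 stacked bar per library, Brg1-cKO left of control. The control bars look alike, while in the PHC family Phc1 takes 23.4% and 51.1% in the Brg1-cKO libraries, against 44.3% and 41.5% in the controls.

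How far each fold change rested on 1 library was read by leaving out either Brg1-cKO library. The CPM of 13 members differed by more than 1.5 times between the Brg1-cKO libraries, against 1 member, Cbx7, between the controls, and the median ratio was 1.27 in Brg1-cKO and 1.05 in control. For 15 members the fold change had opposite signs without replicate 1 and without replicate 2. They were Ezh2, Rbbp4, Phf1, Phf19, Ring1, Bmi1, Pcgf1, Pcgf2, Cbx6, Phc1, Phc2, Bap1, Asxl2, Kmt2b and Kmt2d. The other 22, among them Kdm2b, Rybp, Suz12, Ezh1 and Kdm6b, kept their sign in every setting run, though Cbx7 and Pcgf5 were not tested under the filter of 10 CPM in 2 libraries. Without Brg1-cKO replicate 1 the log2 fold changes of Kdm2b and Rybp were 0.72 and -1.42, and without replicate 2 they were 0.65 and -1.61. When a Brg1-cKO library was left out, 27 of the 37 members passed edgeR's adjusted threshold. The spread then came from the 2 controls alone, and 12315 of 22171 genes tested passed without replicate 1, 55.5%, and 13262 of 21897 without replicate 2, 60.6%. The lone library is assumed there to vary like the controls, which the 2 Brg1-cKO libraries did not.

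**Figure D5:**
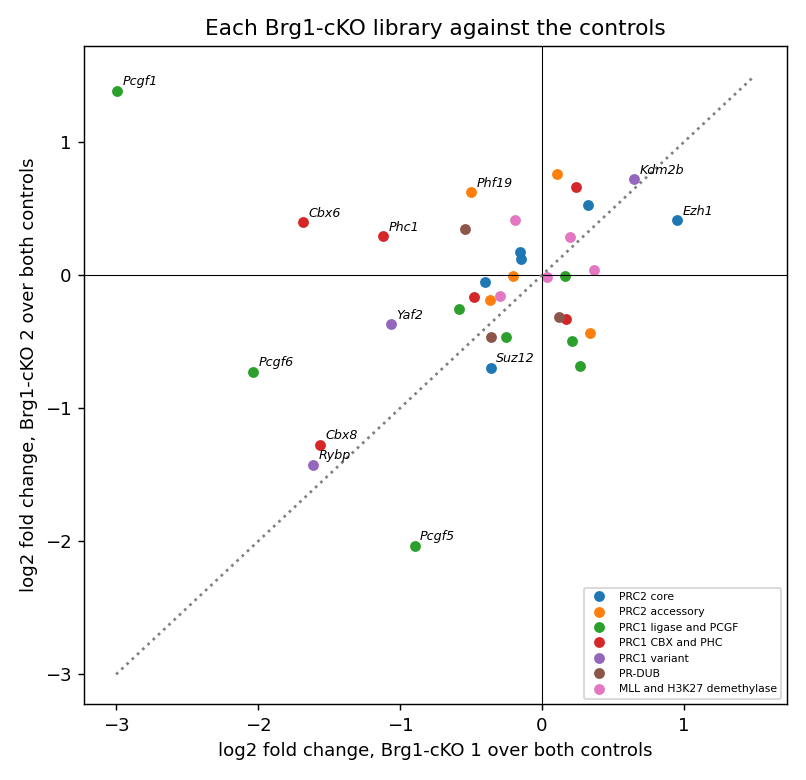
Log2 fold change of each member with only Brg1-cKO replicate 1 (x axis) and with only replicate 2 (y axis) against both controls. Members in the upper left or lower right part, such as Pcgf1 at -2.99 and 1.39, have opposite signs, while Kdm2b and Rybp lie near the diagonal, and Cbx7, with 0 counts in replicate 1, is not drawn.

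Other Polycomb and Trithorax genes, listed together with other histone demethylases, gave a like picture, with 43 tested of 45 listed. Of these, 17 had fold changes above 0 and 26 below, with a median of -0.07, where 8546 of all tested genes were above 0 and 9626 below. At an unadjusted p under 0.05, 0 were higher and 5 were lower, 11.6% of those tested, beside 5.44% of all genes higher and 12.9% lower. None passed edgeR's adjusted threshold. Bcor, the X-linked corepressor that holds the Pcgf1 form of PRC1 together, had 87.3 and 112 CPM in Brg1-cKO libraries, against 179 and 180 CPM in control. Both Brg1-cKO libraries were low, at a log2 fold change of -0.85 (SE 0.19, adjusted p = 0.166 by edgeR). Scmh1, a PRC1-associated protein, had 30.8 and 31.2 CPM in Brg1-cKO libraries, against 54.8 and 50.7 CPM in control, at a log2 fold change of -0.77 (SE 0.26, adjusted p = 0.251 by edgeR). Kdm1a, a demethylase of lysine 4, had 224 and 233 CPM in Brg1-cKO libraries, against 307 and 291 CPM in control, at a log2 fold change of -0.39 (SE 0.11, adjusted p = 0.192 by edgeR). The remaining 2 genes are Y-linked demethylase-family genes and move with Ddx3y. Uty had 0.559 and 1.31 CPM in Brg1-cKO libraries, against 17.3 and 20.2 CPM in control, and Kdm5d had 0.349 and 2.62 CPM, against 41.2 and 46.0 CPM.

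Textbook targets that Polycomb keeps silent stayed near the floor in most cases. Of 18 such genes, 14 were under 1 CPM in both controls, 10 were under 1 CPM in all 4 libraries, and 8 had enough reads to be tested. Of these 8, 6 had fold changes above 0 and 2 below, and the Brg1-cKO libraries were both above the controls for 4 and both below for 2, where 17.5% of all genes lay above and 34.5% below. At an unadjusted p under 0.05, 0 were higher and 2 were lower, Gata6 and Sox1, beside 5.44% and 12.9% of all genes. Gata6, a transcription factor of mesoderm and endoderm, had 3.005 and 7.66 CPM in Brg1-cKO libraries, against 31.6 and 24.5 CPM in control, at a log2 fold change of -2.39 (SE 0.72, adjusted p = 0.208 by edgeR). Sox1, a neural factor, had 0 counts in both Brg1-cKO libraries, against 0.447 and 0.674 CPM in control, at least 4.68-fold lower with 3 counts over the group as the floor. Among the genes above the controls, Pax6, named after its values were seen like the 4 that follow it, had 4.54 and 15.0 CPM in Brg1-cKO libraries, against 1.17 and 1.19 CPM in control, and its log2 fold change of 3.04 (SE 1.22) did not pass the test (edgeR adjusted p = 0.316). Isl1 had 11.5 and 3.27 CPM in Brg1-cKO and 0.922 and 2.33 CPM in control, Lhx2 had 0.559 and 1.12 CPM in Brg1-cKO and 0.196 and 0.026 CPM in control, and Tbx5 had 0.839 and 2.15 CPM in Brg1-cKO and 0.755 and 0.285 CPM in control. These 3 developmental transcription factors did not overlap between groups. Lhx2 rests on only 8 and 12 reads in Brg1-cKO and 7 and 1 in control. Tbx5 likewise rests on 12 and 23 reads in Brg1-cKO and 27 and 11 in control. Gata4, at 0.769 and 16.8 CPM in Brg1-cKO and 1.12 and 0.259 CPM in control, did overlap. None of Isl1, Lhx2, Tbx5 and Gata4 passed the test (adjusted p from 0.344 for Lhx2 to 0.589 for Tbx5 by edgeR). These counts are no measure of targets as a class, because a target that passed the filter only through the group where it was high had to differ.

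Markers of several cell types differed between the groups, while those of nephron progenitors and proliferating cells were nearly level in sum. All 6 podocyte markers were above the controls in both Brg1-cKO libraries, summing to 2550 and 2250 CPM, against 492 and 500 CPM in control. Of 5 early nephron markers, 4 were above and 1 below, at 1387 and 1401 CPM in Brg1-cKO and 752 and 751 CPM in control. All 7 stromal markers were below, at 1333 and 1187 CPM, against 2697 and 2655 CPM, as were all 5 endothelial markers, at 203 and 88.2 CPM, against 446 and 454 CPM. All 4 immune markers were below, at 46.3 and 9.25 CPM, against 83.9 and 83.3 CPM, with C1qa at 0 counts in Brg1-cKO. Of 6 ureteric bud markers, 5 were below, at 46.6 and 38.4 CPM, against 171 and 169 CPM, with Wnt9b and Calb1 at 0 counts in Brg1-cKO. Of 7 nephron progenitor markers, 1 was above, 2 were below and 4 overlapped. They summed to 674 and 643 CPM in Brg1-cKO and 697 and 675 CPM in control, so progenitor genes were present in every library. Their log2 fold changes ran from -1.04 to 0.86, so the near-level sum does not show that each marker was level. None of the 4 erythroid markers had enough reads to be tested. The part of this shift in cell types in the values of Kdm2b, Rybp and the other members was not tested.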

How the data were processed

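The authors deposited whole-number counts of reads per gene for each of 4 libraries. Per the labels' protocols, total RNA came from 3000 cells per library, mRNA was taken with magnetic beads, and strand-specific libraries were read as single ends of 75 bp. Per the submitters' processing notes, mm10, TopHat and DESeq2 were used. The versions, counting tool, annotation and strand setting are not given in the sources used here. Between 31.8% and 72.1% of reads were given to no gene and stayed out of library sizes and tests. Identifiers were matched to GENCODE M21 (52489 of 52636, and all 38 members).

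The counts were fitted with edgeR 4.0.16 in R 4.3.3 (TMM, minimum count 10, group as the only term, robust quasi-likelihood F test, Benjamini-Hochberg over all 18172 genes). CPM use TMM-scaled library sizes. SEs divide each log2 fold change by the square root of F. A count of 0 allows up to 3 counts, 0.0778 to 0.280 CPM by library, and covers counting error only, since reads carry no molecular identifiers. The functions were tested on simulated counts whose spread was taken from the controls alone, which does not cover the wider spread of the Brg1-cKO libraries. Alternatives were DESeq2 1.42.0, limma-voom 3.58.1, RLE or total-count scaling, no filter, a filter of 10 CPM in 2 libraries, a replicate block and each library left out. Every member is reported. Values per library are given for the PRC2 core, for members with an unadjusted p under 0.05, for the highest and lowest of each complex and for some others. Of the other lists, genes with an unadjusted p under 0.05 and no overlap are named, at most 3 per list. Members, lists and rules were chosen with earlier results of these data known. Exon lengths are unions over all annotated transcripts, so levels per kilobase of genes with many transcripts read low, and 16 members share exonic bases with an antisense gene.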

Additional observations from a re-analysis of the deposited data

Results flagged for a closer look

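Reads outside the counted genes, which no comparison here uses, differed between the groups. Of uniquely aligned reads, 53.4% ± 5.47 matched no counted feature in Brg1-cKO, against 15.9% ± 0.77 in control (SD, n = 2 each). The level in each Brg1-cKO library was above that in both control libraries. Groups of 2 libraries are too small to look for a library that stands apart within its group.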

How the results depend on the processing

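The direction of 22 of 37 members held under every alternative run, of which Cbx7 and Pcgf5 were not tested under the 10 CPM filter. With all 4 libraries, 240 of 256 member values kept their direction and side of the adjusted threshold, 2 passed it (Kdm2b and Rybp with DESeq2) and 14 changed sign, all from log2 fold changes under 0.5 in size. All genes past the adjusted threshold, 0 with edgeR, numbered 974 with DESeq2, 327 with limma-voom, 156 with a replicate block, and 16 to 13262 with a library left out. Members past it, 0 with edgeR, numbered 2 with DESeq2 and 0 to 27 with a library left out, 27 without either Brg1-cKO library. Members higher at an unadjusted p under 0.05, 1 with edgeR (988 of all 18172 genes), were 3 with DESeq2 (1549 of 18172). They were 2 with limma-voom (1068 of 18172), RLE size factors (1110 of 18172) or the 10 CPM filter (827 of 10390). Members lower, 1 with edgeR (2340 of 18172), were 2 with total counts (2445 of 18172). The members' median, -0.08, ran from -0.25 without Brg1-cKO replicate 2 to -0.053 without replicate 1 among fits with a library left out, and was -0.02 with DESeq2 and with RLE. Without division by length, the shares in Brg1-cKO of Rybp and Asxl1, 12.8% and 77.0% on average, were 26.9% and 61.4%, because the paralogs differ in exon length. In the fit with the replicate block, 156 of all genes and 0 members passed. The replicate numbers were treated as names only. Deviations of same-numbered libraries from their group means correlated at -0.0169. With 2 libraries per group this is a single value up to its sign, so it cannot decide whether same-numbered libraries belong together.

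Log2 fold changes that turned were Rbbp4 (-0.0063 with limma-voom, -0.020 with total counts, -0.013 without a filter), Phf1 (-0.015 with total counts, -0.0040 without a filter, -0.022 with the block), Pcgf1 (-0.92 with limma-voom, -0.74 with the block), Phc2 (0.020 with DESeq2 and with RLE), Asxl2 (0.050 with DESeq2 and with RLE, 0.019 with the 10 CPM filter) and Kmt2d (-0.0052 with total counts). With a library left out they ran from -0.16 to 0.17 for Ezh2, -0.14 to 0.12 for Rbbp4, -0.43 to 0.34 for Phf1, -0.50 to 0.62 for Phf19, -0.50 to 0.21 for Ring1, -0.0014 to 0.17 for Bmi1, -2.99 to 1.39 for Pcgf1, -0.68 to 0.27 for Pcgf2, -1.68 to 0.40 for Cbx6, -1.12 to 0.29 for Phc1, -0.33 to 0.17 for Phc2, -0.31 to 0.12 for Bap1, -0.54 to 0.35 for Asxl2, -0.19 to 0.42 for Kmt2b and -0.010 to 0.035 for Kmt2d. The causes were not tested. The depth and spread of the Brg1-cKO libraries limit what can be seen of genes with few reads, such as Cbx7, Pcgf1 and Pcgf5.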
